A study of Mus musculus with 4 samples.

Results

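The genes described here are 8 components of the MHC class II antigen-presentation system of the mouse, measured in colonic crypt epithelium: the classical chains H2-Aa, H2-Ab1 and H2-Eb1, the peptide-exchange factor chains H2-DMa and H2-DMb1, the invariant chain Cd74, and the regulators Ciita and Rfx5. They were taken by name, and every probe set (the group of short array probes that gives 1 value) whose annotation held one of these symbols alone was used. That gave 15 probe sets for 7 of the 8 genes, out of 18194 named genes on the array. H2-DMb1 had only probe sets shared with other genes, and the 2 shared with H2-DMb2 are given separately as such.

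Expression was measured on 4 arrays of RNA from the colon of male mice, 1 array for each group, so no difference below has a replicate check, and having so few arrays is what limits precision. GFPhigh and GFPlow are crypt cells of H2B-GFP mice, in which a tetracycline-responsive element drives a fluorescent histone. These mice were labelled with doxycycline for 7 days and then kept without it for 2 days, and epithelial cells that had retained the label (GFPhigh, non-proliferating) or diluted it (GFPlow, proliferating) were sorted. Dox minus and Dox plus are isolated crypts, with no sort named, of mice with a doxycycline-inducible β-catenin gene, either untreated or given doxycycline at 2.0 mg/ml in drinking water for 5 days. Doxycycline and β-catenin induction therefore cannot be told apart in the second pair. The strain, the number of mice per array and the cell type in which the inducible gene is driven were not stated in the labels or design text.

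MHC class II molecules are αβ pairs on the cell surface that present peptides from endocytosed proteins to CD4+ T cells. Cd74 occupies the peptide groove of a new molecule and guides it to endosomes, where the H2-DM pair exchanges the remaining Cd74 fragment for peptide. Dendritic cells, macrophages and B cells make class II constitutively, and intestinal epithelial cells can make it too, classically after interferon-γ. Transcription depends on the coactivator Ciita, which does not bind DNA itself but docks on a promoter complex containing Rfx5, CREB-family proteins and NF-Y. That complex sits on promoter elements called the X and Y boxes.

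Promoter sequences from RefSeq (build GRCm38.p6, windows of 300 bases running from 250 before to 50 after the start site) were found for 5 of the 8 genes: H2-Aa, H2-Eb1, H2-DMb1, H2-DMa and Rfx5. The X1 box consensus searched first, on both strands, matched H2-DMb1 alone, and 0.749% of the 32851 windows of the table. A shorter X box core, CTNGNAACT, was chosen after these promoters had been seen, so its matches in them are a description. With the Y box core ATTGG following on the same strand after 15 to 35 bases, it was present in H2-Aa, H2-Eb1 and H2-DMb1 and in 27 of all windows (0.0822%). ATTGG alone, on either strand, was in all 5 genes and in 37.4% of windows. The interferon-γ-activated site TTCNNNGAA was in none of the 5 and in 8.3% of windows. The stretches are printed because they show the same arrangement at H2-Aa, H2-Eb1 and the DM β chain, with the X core and ATTGG in capitals, 5′ to 3′ along each gene's strand. They lie at chr17:34287855-34287919 (minus strand) for H2-Aa, chr17:34305761-34305824 (plus strand) for H2-Eb1 and chr17:34153082-34153146 (plus strand) for H2-DMb1.
H2-Aa: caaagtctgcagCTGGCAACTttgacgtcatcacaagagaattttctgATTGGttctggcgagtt
H2-Eb1: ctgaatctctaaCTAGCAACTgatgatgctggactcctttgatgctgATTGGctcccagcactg
H2-DMb1: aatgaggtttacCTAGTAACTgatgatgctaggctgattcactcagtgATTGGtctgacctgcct
The gap between both elements was 27 bases in H2-Aa and H2-DMb1 and 26 in H2-Eb1, and the X core began 84, 97 and 94 bases before the start site in H2-Aa, H2-DMb1 and H2-Eb1.

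All values are log2 as deposited, made with GCRMA. Values under 5 were treated as not informative and set to 5, a gene counted as measured in a pair when at least 1 of its arrays reached 5, and a difference of 1 or more (2-fold) was called. The arrays of a pair correlated at r = 0.985 in each pair, and arrays of different pairs at 0.930 to 0.941. Colon epithelium was well represented: all 12 epithelial markers were above the floor on every array, with Epcam, an epithelial adhesion molecule, at 15.30 in GFPhigh, 15.19 in GFPlow, 14.72 in Dox minus and 14.86 in Dox plus. The labels' groups also showed in Mki67, a proliferation marker, which was 2.17 higher in GFPlow, and in the Wnt target Axin2, which was 2.43 higher in Dox plus. Lgr5, a stem cell marker and Wnt target, was higher in GFPlow by at least 1.25 and in Dox plus by 3.84. Among the epithelial markers the widest differences were those of Krt20 and Vil1, markers of differentiated cells, in the sorted pair (-0.84 and -0.74) and of the transcription factor Cdx2 in the Dox pair (0.57). Ctnnb1, which encodes β-catenin itself, differed by -0.11, 0.21 and 0.66 between Dox plus and Dox minus in its 3 probe sets, and whether those probes read the inducible gene was not tested.

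Class II transcripts were abundant in both sorted fractions of normal crypt and slightly lower in the proliferating one. Every classical chain, H2-DMa, Cd74 and Ciita had a lower value in GFPlow than in GFPhigh, and Rfx5 had a higher one. By the brightest probe set of each gene Ciita alone was past 2-fold, through a bound that depends on the floor. H2-Aa lay just under 2-fold at -0.99, and another of its probe sets (1443783_x_at) differed by -1.90. The other genes differed by less. After induction of β-catenin the αβ pair H2-Aa and H2-Ab1 and the invariant chain Cd74 had higher values than in untreated crypts, with H2-Ab1 past 2-fold, whereas H2-Eb1 did not differ by more than 0.09. In the sorted pair 403 of 9381 measured genes (4.3%) were called lower and 13.1% were called in either direction, against 1 of 7 members. In the Dox pair 6.93% of 9537 measured genes were called higher and 12.3% in either direction, against 1 of 5 members. With 1 array per group and so few genes, nothing is read from these shares.

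**Figure D1:**
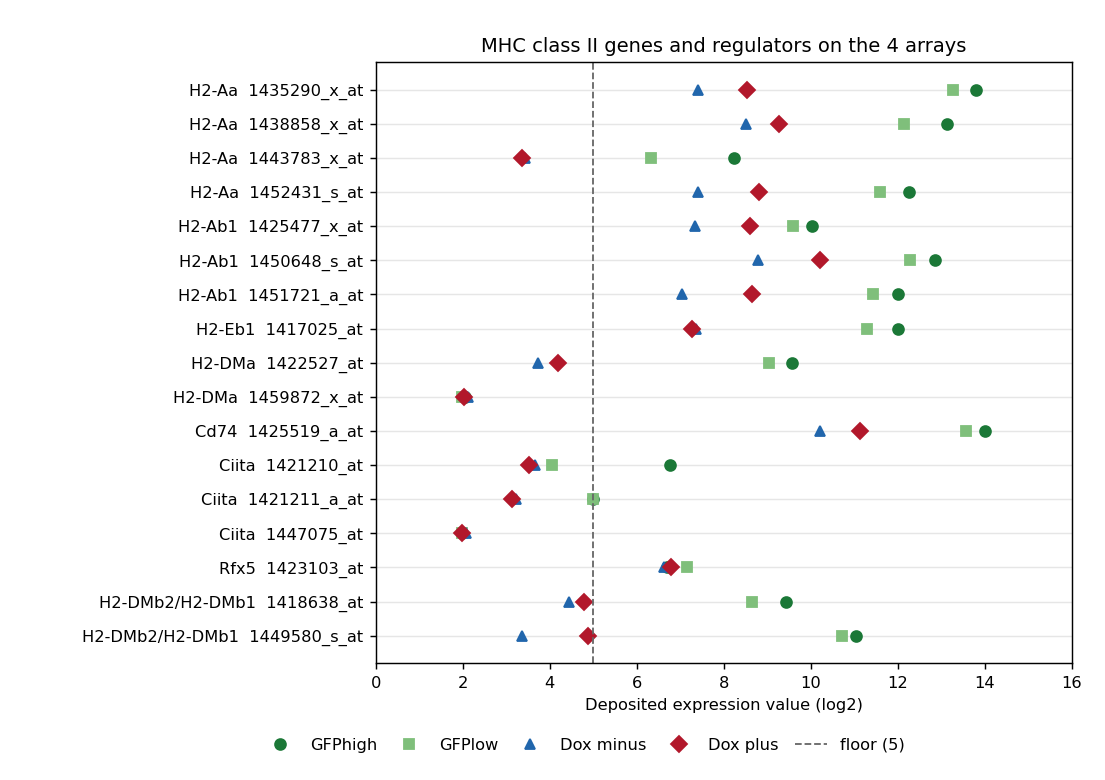
Deposited log2 value of every probe set (rows) of the class II genes and their regulators on the 4 arrays (symbols), with the floor of 5 as a dashed line; the last 2 rows are shared by H2-DMb1 and H2-DMb2. For H2-Aa, H2-Ab1, H2-Eb1, H2-DMa and Cd74, every probe set above the floor has both GFP arrays to the right of both Dox arrays, while Rfx5 lies between 6.63 and 7.15 on all arrays.

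H2-Aa encodes the α chain of the I-A molecule. Its brightest probe set on average (1438858_x_at) read 13.14 in GFPhigh, 12.15 in GFPlow, 8.52 in Dox minus and 9.26 in Dox plus, a difference of -0.99 in the sorted pair and 0.74 in the Dox pair. GFPhigh was the highest array and Dox minus the lowest. Probe set 1435290_x_at read 13.80, 13.27, 7.41 and 8.53 in the same order, and 1452431_s_at read 12.25, 11.59, 7.41 and 8.80. Both kept that order of arrays, with differences of -0.53 and -0.66 in the sorted pair and of 1.12 and 1.39 in the Dox pair. The fourth, 1443783_x_at, was dimmer, at 8.23 in GFPhigh and 6.33 in GFPlow, and under the floor on both Dox arrays (3.43 and 3.37). Its difference of -1.90 in the sorted pair was the largest of the H2-Aa probe sets. The call for this gene therefore rested on how its probe sets were combined: their mean was -1.02 in the sorted pair and 1.08 in the Dox pair, past 2-fold in both.

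H2-Ab1 encodes the β chain that pairs with H2-Aa. Its brightest probe set (1450648_s_at) read 12.85 in GFPhigh, 12.29 in GFPlow, 8.78 in Dox minus and 10.21 in Dox plus. The difference was -0.56 in the sorted pair (1.47-fold lower in GFPlow) and 1.43 in the Dox pair (2.69-fold higher in Dox plus). Probe set 1451721_a_at, at 12.01, 11.42, 7.04 and 8.66, differed by -0.59 and 1.62. Probe set 1425477_x_at, at 10.02, 9.59, 7.34 and 8.60, differed by -0.43 and 1.26. All 3 probe sets of H2-Ab1 were thus past 2-fold in favour of Dox plus, and none was past 2-fold in the sorted pair.

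H2-Eb1 encodes the β chain of the I-E molecule. Its only probe set (1417025_at) read 12.01 in GFPhigh, 11.29 in GFPlow, 7.36 in Dox minus and 7.27 in Dox plus. It was 0.72 lower in GFPlow, a difference like those of the I-A chains, but it differed by only -0.09 in the Dox pair. The α chain of I-E, H2-Ea, is silent in some mouse haplotypes because of a deletion in its promoter. Its probe set 1422891_at read 8.44 in GFPhigh, 7.13 in GFPlow, 9.32 in Dox minus and 8.36 in Dox plus, which is -1.31 and -0.96 in the respective pairs. A second H2-Ea probe set (1422892_s_at) read 2.04, 2.02, 7.21 and 2.11, so Dox minus alone was above the floor there, and the third was under the floor throughout.

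Cd74, the invariant chain, read 14.01 in GFPhigh, 13.57 in GFPlow, 10.21 in Dox minus and 11.12 in Dox plus on its only probe set (1425519_a_at). The values followed the array order of H2-Aa and H2-Ab1. The difference was -0.43 in the sorted pair (1.35-fold lower in GFPlow) and 0.90 in the Dox pair (1.87-fold higher in Dox plus), so neither was called.

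The DM chains edit the peptide repertoire in endosomes, and their transcripts were above the floor on the GFP arrays alone. H2-DMa (1422527_at) read 9.57 in GFPhigh and 9.04 in GFPlow, a difference of -0.52, and lay under the floor at 3.73 in Dox minus and 4.19 in Dox plus. Its other probe set did not exceed 2.12 on any array. The probe sets assigned to both H2-DMb1 and H2-DMb2 had the same order of levels between the lines. The first, 1418638_at, read 9.42, 8.66, 4.45 and 4.78, and the second, 1449580_s_at, read 11.03, 10.72, 3.37 and 4.88. Their differences in the sorted pair were -0.76 and -0.31, and neither was measured in the Dox pair. The brightest of 3 probe sets annotated to H2-DMb2 alone read 3.51 to 4.19. H2-DMb2, H2-Eb2, a second E β gene, and H2-Oa and H2-Ob, the chains of the DM inhibitor DO, were under the floor on every array.

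Ciita, the transactivator, was measured on GFPhigh alone. Probe set 1421210_at read 6.76 in GFPhigh, 4.06 in GFPlow, 3.65 in Dox minus and 3.52 in Dox plus, so the value in GFPlow was lower by at least 1.76 (3.38-fold). This bound depends on the floor: it was -0.76, under 2-fold, with a floor of 6, and -2.70 with a floor of 4. A second probe set (1421211_a_at) lay just under the floor in both sorted fractions, at 5.00 and 4.99, with 3.23 and 3.14 in the Dox pair, and showed no such difference. The third did not exceed 2.08. A gene that passes the floor only through the array where it is high had to differ, so the Ciita call supports nothing by itself.

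Rfx5, a subunit of the factor that binds the X box, did not share the pattern of the chains. It read 6.70 in GFPhigh, 7.15 in GFPlow, 6.63 in Dox minus and 6.78 in Dox plus (1423103_at), with differences of 0.45 and 0.15. Its 4 values spanned far less than those of any class II chain above the floor.

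**Figure D2:**
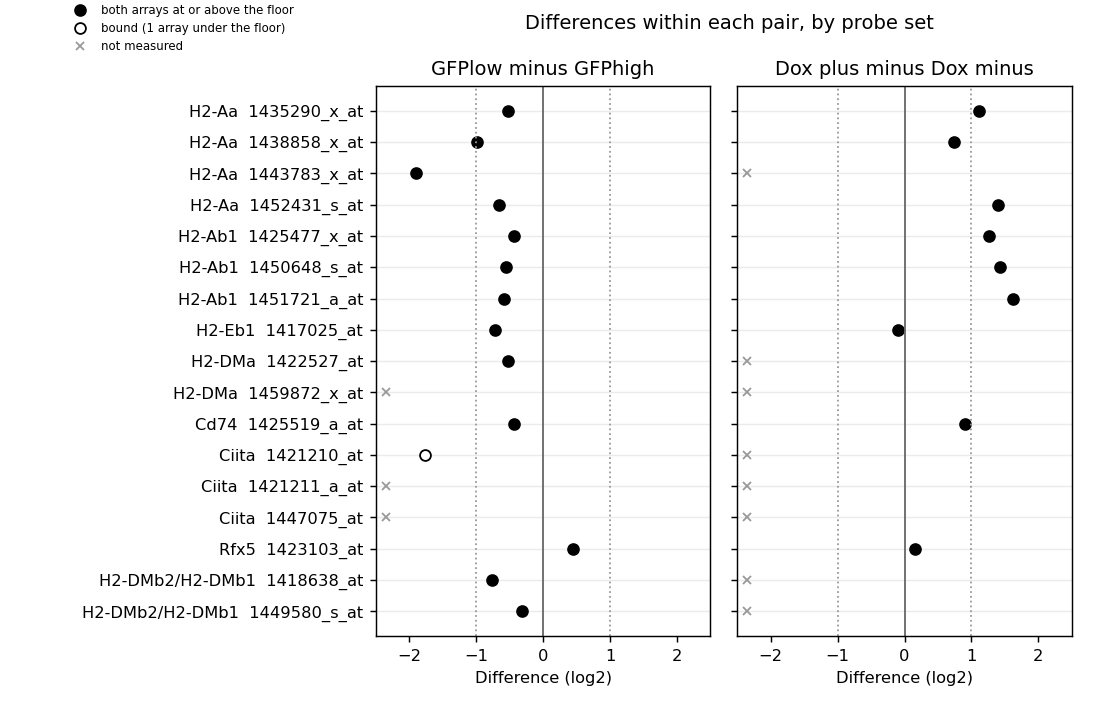
Difference of each probe set within the sorted pair (left) and the Dox pair (right), in log2; filled circles have both arrays at or above the floor, the open circle is a lower bound on the size, and crosses at the left edge mark probe sets not measured. On the left 11 of 12 measured single-gene probe sets lie below 0 and 2 are past the dotted 2-fold line; on the right 8 of 9 lie above 0 and 5 are past it, all from H2-Aa and H2-Ab1.

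Counted by probe set, 12 of the 15 were measured in the sorted pair, of which 11 were lower and 2 called lower in GFPlow, where 5.67% of all single-symbol probe sets were called lower. Of the 9 measured in the Dox pair, 8 were higher and 5 were called higher in Dox plus, against 7.88% of all probe sets. Probe sets of 1 gene share a transcript and are not replicates. The direction over all genes was close to even: 46.8% of measured genes were lower in GFPlow (median difference 0.04) and 55% were higher in Dox plus (median 0.06). The median over the measured members was -0.56 in the sorted pair and 0.74 in the Dox pair. The Dox values of H2-Aa, H2-Ab1 and Cd74 all come from probe sets whose names carry the suffix _x, _s or _a before _at, a sign that their probes may also match related or alternative transcripts. Without these H2-Eb1 and Rfx5 were the only members measured in the Dox pair, and 0 were called.

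The brightest probe sets of the class II chains above the floor and of Cd74 were higher on both GFP arrays than on both Dox arrays, except that of H2-Ea. The lower GFP array exceeded the higher Dox array by at least 4.04 for H2-DMa (both Dox arrays were under the floor), by 3.93 for H2-Eb1, 2.89 for H2-Aa, 2.45 for Cd74 and 2.09 for H2-Ab1, and these 5 of 7 members were past 2-fold. H2-DMa passed the floor only through the GFP arrays. H2-Ea gave -2.19, so it was higher on the Dox arrays. The gap was smaller on a pair of other probe sets: 0.99 on 1425477_x_at of H2-Ab1, less than its 1.26 within the Dox pair, and at least 1.33 on 1443783_x_at of H2-Aa, less than its 1.90 in size within the sorted pair. Of 9895 genes, 9.81% were past 2-fold in the same sense, and 19 genes had a larger gap than H2-Eb1. Ciita gave no gap because GFPlow was under the floor, and Rfx5 gave -0.08. This comparison was added after the values had been seen. The pairs differ in mouse line, sorting and doxycycline schedule, which cannot be told apart. They also differ in the 18S ribosomal RNA control probe sets, which averaged 13.03 and 13.29 on the GFP arrays against 3.25 and 2.56 on the Dox arrays. The same 5 members stayed past 2-fold after quantile normalization of all 4 arrays together.

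Leukocyte markers went the other way between the lines. Of 10 general leukocyte genes, 2 were at or above the floor in GFPhigh, 3 in GFPlow, 5 in Dox minus and 6 in Dox plus. Their summed level, taken from the deposited values without the floor and so on the GFP arrays partly from values near background, was 7.09 (log2) in GFPhigh, 8.26 in GFPlow, 10.98 in Dox minus and 10.63 in Dox plus, whereas the class II members summed to 15.21, 14.61, 11.16 and 12.07. Ptprc, the pan-leukocyte surface phosphatase CD45, was under the floor at 2.47 in GFPhigh and 4.41 in GFPlow and read 7.19 in Dox minus and 6.58 in Dox plus. Among 21 dendritic cell and macrophage markers, 1 was at or above the floor in GFPhigh, 2 in GFPlow and 3 on each Dox array. Itgax and Cd68, defining markers of these cells, did not exceed 3.41 on any array. C1qa, a macrophage complement gene, read 1.98 and 1.97 on the GFP arrays and 7.97 and 7.94 on the Dox arrays, with a difference of -0.03 between the latter, whereas C1qb and C1qc, which encode the other chains of the same complex, were under the floor on all 4. Lyz2, a lysozyme of myeloid cells, read 3.32, 5.04, 5.59 and 6.30 in the order GFPhigh, GFPlow, Dox minus, Dox plus. Csf1r was close to the floor, between 5.51 and 5.67 on all arrays on its brightest probe set. Its other probe sets were under the floor on every array.

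Within the sorted pair the 3 measured leukocyte genes were higher in GFPlow, against 53.2% of all measured genes. Of 7 measured class II members 6 were lower there, against 46.8% of all measured genes. Nothing is read from these counts. Lcp1, an actin-bundling protein of leukocytes, differed by 1.93, Laptm5 by at least 0.53 and Cytip by 0.33. A second measured Cytip probe set (1443928_at) differed by 0.00. Laptm5 reached the floor in GFPlow alone and Ciita in GFPhigh alone, so the direction of both was fixed beforehand. From the T cell list Itgae, an integrin of intraepithelial T cells, differed by 1.03. The T cell marker Cd3e did not exceed 2.72 on any array. Gzmb and Cd8a, cytotoxic T cell genes, were above the floor on the Dox arrays alone and differed there by -0.26 and -0.25. Of 11 B cell markers on the array 1 was measured in each pair. Ighm, at 5.14 in GFPhigh and 4.59 in GFPlow, was close to the floor. Of the 6 general leukocyte genes measured in the Dox pair, 4 were lower in Dox plus, against 45% of all measured genes. Among these 4 Laptm5 alone was called, at -1.53. The other 2 were higher, among them Lcp1 by 0.50 on its brightest probe set. The plasma cell gene Jchain, which reached the floor in Dox minus alone, was lower in Dox plus by at least 2.53. H2-Ab1 was the 1 class II member called higher. In bulk RNA fewer cells of a type and less RNA per cell cannot be told apart, and the part of other cell types in the class II values was not tested.

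**Figure D3:**
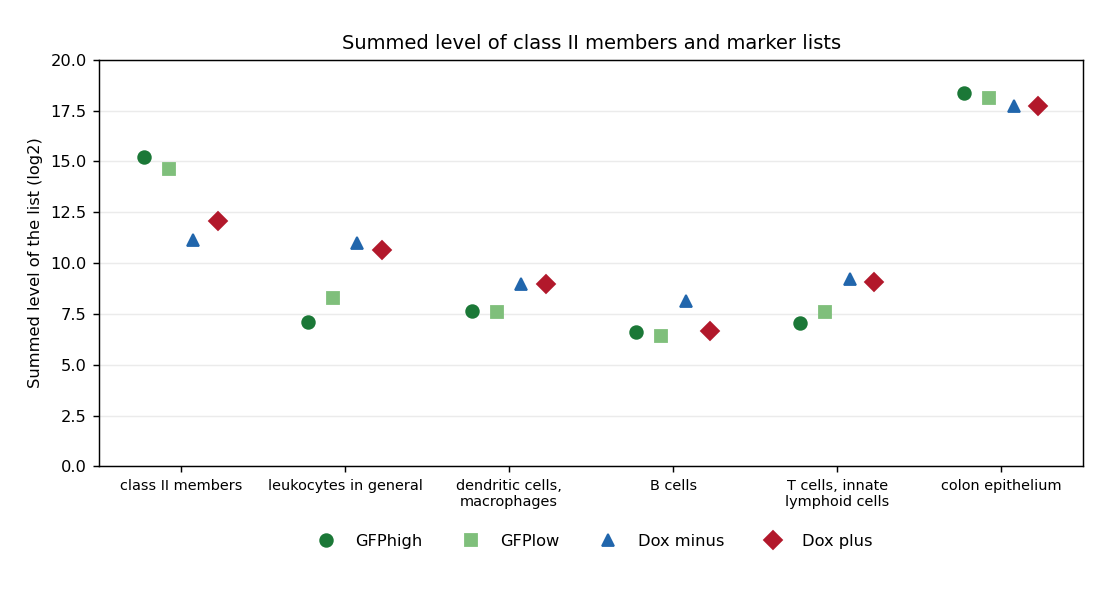
Summed level (log2 of the sum of linear values without the floor, each gene by its brightest probe set) of the class II members and of 5 marker lists on the 4 arrays. Class II members sit highest on the GFP arrays (15.21 and 14.61), and general leukocyte markers highest on the Dox arrays (10.98 and 10.63).

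Of all measured genes 13.1% were called in the sorted pair and 12.3% in the Dox pair. The other lists of the pathway are so short that few calls would be found at those shares. Nothing is read from their counts. Among 12 measured processing genes, which encode endosomal proteases and their helpers, 0 were called in the sorted pair. Cathepsin S (Ctss), the protease that trims Cd74, differed by -0.64, and Ctsh by 0.89. Between the Dox arrays 11 of 12 had lower values in Dox plus, against 45% of all measured genes. Of these 1 was called, the asparaginyl endopeptidase Lgmn at -1.14. Ctss differed there by -0.75. Others were near 0, such as Ifi30 at -0.04, Ctsz at -0.06 and Ctsb at -0.09. Other Ctsb probe sets differed in sign, with 0.22 on 1448732_at and -1.53 on 1417491_at. Of the enhanceosome genes and cofactors, 12 were measured in the sorted pair and 13 in the Dox pair, and 0 were called in either. Rfxank, a partner of Rfx5, differed by -0.45 and -0.91, the third partner Rfxap by 0.20 and -0.06, the acetyltransferases Ep300 by -0.79 in the sorted pair and Kat2b by -0.98 in the Dox pair, and the NF-Y subunit Nfyb by 0.66 in the sorted pair.

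Of 10 measured interferon-γ signalling genes, 9 had lower values in GFPlow, against 46.8% of all measured genes, and the list median was -0.33. Some of these were near 0, such as Ptpn2 at -0.08 and Ptpn11 at -0.11. The list holds inhibitors as well as activators, so no direction of the signalling is read from the count. Usf1, a transcription factor that acts on the inducible Ciita promoter, was the only one called (-1.06). That call rested on 1 probe set (1448805_at), and its other measured probe set (1426164_a_at) differed by -0.11. The receptor chain Ifngr1 differed by -0.56, and Irf1, another activator of that promoter, by -0.47. Between the Dox arrays 0 of 10 were called on their brightest probe sets. Irf1 and the feedback inhibitor Socs3 had lower values in Dox plus (-0.80 and -0.84). A second Socs3 probe set (1456212_x_at) was past 2-fold in both pairs, at -1.35 in the Dox pair and -2.40 in the sorted pair. The brightest differed by -0.38 in the sorted pair. Outside the list, and chosen after their values were seen, the interferon-induced genes Gbp2, a guanylate-binding protein, and Usp18, an ISG15 protease, were lower in Dox plus, with differences of -3.65 and -5.70. In the sorted pair they differed by -0.91 and 0.41. Among costimulatory molecules, 3 of 9 genes on the array were measured in each pair. The inhibitory ligand Cd274 was lower in GFPlow by at least 0.49, and Lgals9 was lower in Dox plus by 1.29. Cd40, Cd80 and Cd86, the main costimulatory molecules of antigen-presenting cells, were under the floor on all arrays. Cd74 also acts as a surface receptor. Of the genes for its partners, 2 of 3 measured were higher in GFPlow and 4 of 4 in Dox plus. Over all measured genes these shares were 53.2% and 55%. Cd44, its signalling co-receptor and a Wnt target, differed by 1.88 in the sorted pair and 0.54 in the Dox pair, and the cytokine Mif by 0.92 and 1.13. The chemokine receptor Ackr3 read 3.94 in Dox minus and 7.86 in Dox plus, higher by at least 2.86. It reached the floor in Dox plus alone, so it could only count as higher.

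MHC class I is the parallel system that presents cytosolic peptides. In the sorted pair 10 of 16 measured class I genes were lower in GFPlow, against 46.8% of all measured genes. Nlrc5, the class I counterpart of Ciita, was lower by at least 1.64 and H2-Q2 by 1.33. Nlrc5 reached the floor in GFPhigh alone, so it could only count as lower. Between the Dox arrays 6 of 15 were called lower, where 5.35% of all measured genes were, and H2-Q2 was called higher. Tapbp, among those called lower, differed by -1.03 on its brightest probe set and by 0.35 on its other. The class I chains H2-K1 and H2-D1 and their partner B2m differed by -0.55, -0.05 and -0.36 on their brightest probe sets. The other H2-K1 probe sets differed by 0.56, 0.46 and -0.71, so that gene had no single direction. The peptide transporter genes Tap1 and Tap2 differed by -2.20 and -1.77 and the immunoproteasome subunits Psmb8 and Psmb9 by -2.36 and -1.23. These 4 genes lie beside H2-Ab1 and H2-Aa on chromosome 17 in the gene order of GRCm38.p6, so neighbouring genes had differences of opposite sign.

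**Figure D4:**
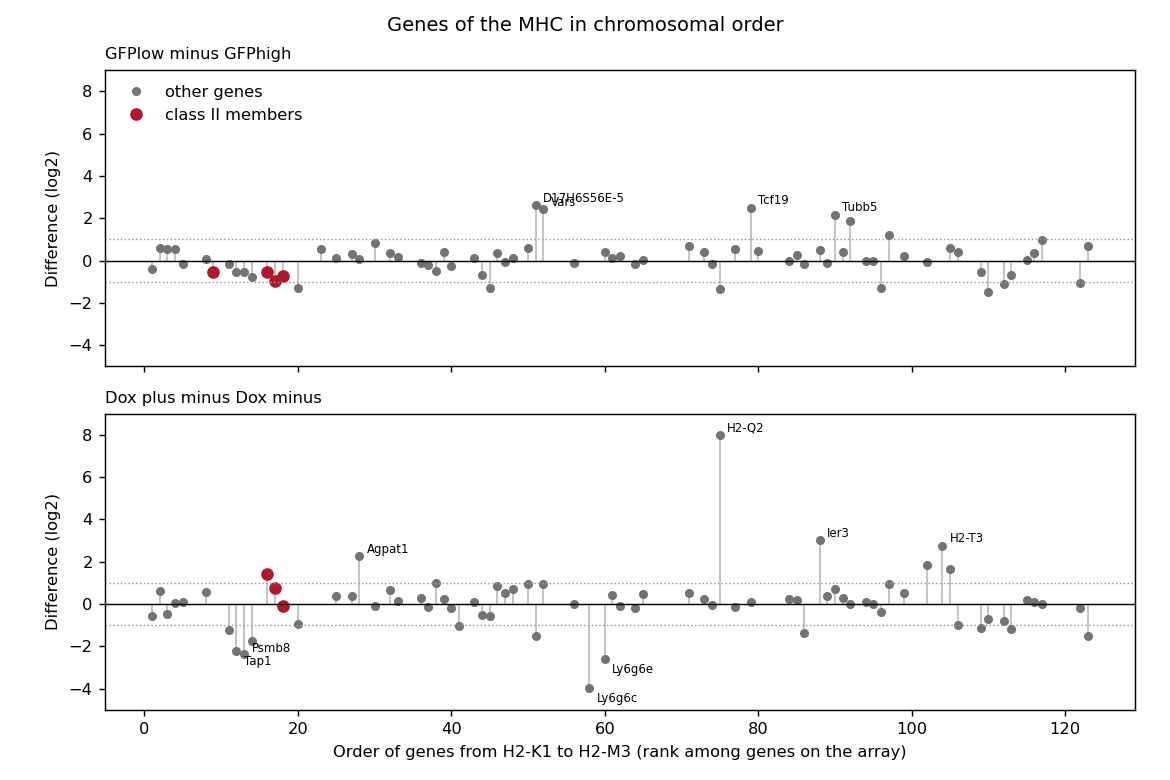
Log2 difference of each measured gene from H2-K1 to H2-M3, by rank in chromosomal order among the 123 genes on the array, in the sorted pair (top) and the Dox pair (bottom); dotted lines mark 2-fold and red points the class II members. The Dox pair has the wider spread, from -3.96 for Ly6g6c to a lower bound of 8.01 for H2-Q2, and the Tap and Psmb genes lie on the opposite side of 0 from H2-Ab1 and H2-Aa.

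Several other probe sets in the MHC differed in the Dox pair by far more than the class II genes, with Dox minus standing apart from the other 3 arrays. Probe sets 1425614_x_at, 1427651_x_at and 1452544_x_at of the class I gene H2-D1 read 15.03, 14.94 and 14.07 in Dox minus and between 3.05 and 4.26 on the other arrays, while the brightest H2-D1 probe set read between 14.24 and 14.68 on all 4. H2-Q2 read 3.79 in Dox minus against 11.05 in GFPhigh, 9.72 in GFPlow and 13.01 in Dox plus. Agpat1, an enzyme of phospholipid synthesis close to the class II genes, read 9.25 and 9.30 on the GFP arrays but 3.88 in Dox minus, against 7.26 in Dox plus. Ppt2 had the largest difference in the sorted pair (0.84) among the 24 measured genes of the shorter list of non-class II genes around the class II genes. Of 126 single-symbol probe sets in the region above the floor somewhere, 4.76% had Dox minus at least 8-fold from the nearest other array, against 0.255% of the 17258 on the whole array, and on the remaining arrays 0 in the region did so. Dox minus was higher on 4 of these probe sets and lower on 2. The 4 include the H2-D1 probe sets named above, which belong to 1 gene and are not replicates. The region's bounds were chosen after the values had been seen. MHC genes vary in sequence between mouse haplotypes, and the labels do not state the haplotypes of these mice. Their part in the Dox differences of H2-Aa, H2-Ab1 and H2-Eb1 was not tested. Cd74, which differed by 0.90, lies outside the MHC.

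Genes with the most similar pair of differences were sought among 8578 genes at or above the floor on all 4 arrays, by Euclidean distance over the 2 differences. Nearest to Cd74 (-0.43 and 0.90) were Calcoco1 (-0.42 and 0.90, distance 0.019), Traf4 (distance 0.042), Tgif1 (0.070), Irf2bpl (0.079) and Cyp27a1 (0.084). Nearest to the median of the 5 members measured in both pairs (-0.56 and 0.74) were Zc3h12a (-0.57 and 0.74, distance 0.018), Oplah (0.046), Inpp5e (0.063), Reep4 (0.067) and Inf2 (0.070). This likeness rests on 2 differences from 4 arrays, and the levels of Calcoco1, from 5.16 to 6.39, did not share the gap of Cd74 between the mouse lines.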

How the data were processed

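For each of 45101 probe sets the authors deposited a log2 value on each of 4 arrays. The submitters' processing notes name GCRMA, without a version. GCRMA models background from probe sequence, so values near background carry little information. The range was 0.47 to 16.27. The platform annotation gave 34958 probe sets 1 symbol, 932 several and 9211 none. Values under 5 were set to 5, differences were taken within a pair (GFPlow minus GFPhigh, Dox plus minus Dox minus), and the probe set with the highest mean stood for a gene. With 1 array per group no test was run. Members and lists were chosen with earlier results of these data known. The text names all members and other class II chains, the genes past 2-fold in each list (up to 4 per comparison, otherwise the 2 largest), fixed markers and the 5 nearest genes. Psmb9, Tapbp, Rfxap, Ifngr1, Ptpn2, Ptpn11, Ifi30, Ctsz, Ctsb, Gzma, C1qa, C1qb, C1qc, Cytip, H2-K1, B2m, Gbp2, Usp18, Cd40, Cd80, Cd86, Ly6g6c, Abcf1, Vps52, the H2-D1 probe sets, and further values of listed genes were named after seeing them. Alternatives were floors of 4 and 6, no floor, quantile and loess (span 0.4) scaling, the mean of probe sets, leaving out probe sets with _x, _s or _a before _at, and 3-fold. The code was tested on simulated data. Python 3.11.15, pandas 2.3.3, numpy 2.4.6 and statsmodels 0.14.6 were used.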

Additional observations from a re-analysis of the deposited data

How the results depend on the processing

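The count of class II members past 2-fold in the sorted pair was 1, and it was 0 with a floor of 6 and 2 with the mean of probe sets, which added H2-Aa. In the Dox pair it was 1, and it was 2 with the mean of probe sets, 0 without probe sets that carry _x, _s or _a before _at (only 2 members were then measured) and 0 at 3-fold. Over the other 7 antigen-presentation lists, 5 of 57 measured genes were called in the sorted pair, or 2 at 3-fold. Of all measured genes 13.1% were called there, or 4.7% at 3-fold. In the Dox pair 11 of 58 were called, or 7 of 40 without those probe sets and 5 of 58 at 3-fold. The respective shares over all genes were 12.3%, 12.8% and 4.24%. The 5 members past 2-fold between the mouse lines were past it with floors of 4 and 6 and with quantile normalization of all arrays, settings added after seeing the data. Of 90 values of single members under an alternative, 84 stayed on their side of 2-fold and within 1.5 times, 2 moved further, 2 crossed to called, 2 crossed to not called and none of the called ones changed sign. No paired analysis was possible because each group has 1 array. Depth is not defined for arrays; background is what limits Ciita, H2-DMa and the H2-DMb probe sets.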

Other observations

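In the MHC, Dox minus also lay at least 8-fold from the nearest other array on a probe set of Ly6g6c, a member of the Ly6 family, which read 10.20 there against 2.74 in GFPhigh, 2.25 in GFPlow and 6.24 in Dox plus. A probe set of Abcf1, an ATP-binding protein of translation, read 4.80 in Dox minus against 9.17, 9.48 and 8.34 in the same order. Vps52, a trafficking gene of the class II region list, read 6.84 in Dox minus and 8.08 in Dox plus on 1 probe set and 2.31 and 6.43 on the other, with both GFP arrays between 7.93 and 8.23. These genes were chosen after their values were seen, and no explanation was tested.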
